A study of Homo sapiens with 4 samples.

Results

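The genes described here form the sterol regulatory element-binding protein (SREBP) programme: the enzymes that make cholesterol and fatty acids, the proteins that regulate them, and the genes of sterol efflux. They were chosen by name as a list of 40 genes, with earlier results of these data known. Their shares beside those of all genes are therefore description, not independent evidence. A probe set annotated to a single gene measured 37 of the 40, out of 18417 genes so measured on the array, and all 37 passed the filter on low values that left 15946 genes tested. FDFT1, HSD17B7 and ACSL3 were not analysed here. A gene with several probe sets is represented by the brightest one on average.

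The groups were MDA-MB231 cells expressing FBP1, MDA-MB231 control cells, Hs578T cells expressing FBP1 and Hs578T control cells, with 1 array each, so 4 arrays in all. Both are established human breast cancer lines of the basal-like class, as labelled. FBP1 encodes fructose-1,6-bisphosphatase, an enzyme of gluconeogenesis; stable clones expressing it were selected, and the number of clones and what the control cells carried are not given in the sources used here. All cells grew in DMEM/F12 medium with fetal bovine serum, itself a source of lipoprotein cholesterol, and were harvested in log-phase growth. With 1 array a group, no difference within a line has a replicate check. A change is FBP1 minus control on the log2 scale, computed before rounding.

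The introduced gene and the cell type markers were checked first. FBP1 had a log2 intensity of 13.07 with FBP1 and 9.83 in control MDA-MB231 cells, and 13.35 with FBP1 and 6.35 in control Hs578T cells. Of the basal and mesenchymal breast markers, VIM (13.71 to 13.72 over the arrays), CD44 (13.68 to 13.88), CAV1 (13.66 to 13.92), FN1 (13.1 to 14.21) and EGFR (10.63 to 11.05) lay well above the array medians, KRT14 lay at 8.45 to 9.62 and KRT5 at 6.80 to 6.93. Luminal markers were mixed. The keratin genes KRT18 (12.33 to 12.71), KRT8 (9.58 to 13.1) and KRT19 (7.92 to 12.26) lay above the medians, as did GATA3 (8.12 to 9.05) and FOXA1 (8.06 to 8.5). EPCAM (6.26 to 9.47) and CDH1 (6.34 to 7.9) varied between arrays, and ESR1 (6.64 to 6.80) and PGR (5.61 to 6.36) were near the filter level of 6.16. Of the adipocyte markers, PLIN1 lay at 7.75 to 7.93, LEP at 7.13 to 7.34, ADIPOQ at 6.56 to 6.88 and FABP4 at 5.57 to 6.27. The leukocyte markers PTPRC (4.52 to 4.96) and CD3E (5.69 to 6.12) were below the filter level on every array. The part of other cell types in the results was not tested. Array medians were 7.83 to 7.86.

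SREBPs are transcription factors made as precursors in the membrane of the endoplasmic reticulum. When sterols are scarce, the escort protein SCAP carries them to the Golgi, where proteases free the active part, which enters the nucleus and turns on the genes of lipid synthesis. When sterols are plentiful, INSIG proteins hold SCAP back, while oxysterols activate the nuclear receptor LXR, which turns on sterol efflux. SREBP binds sterol regulatory elements in promoters, usually together with NF-Y, which binds CCAAT boxes, or Sp1, which binds GC boxes. Cancer cells are known for active lipid synthesis.

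In MDA-MB231 cells most of the programme was lower with FBP1. Of 37 genes, 32 were below control, 22 were lower by at least 0.322 on the log2 scale, 10 were at least 1.5-fold lower, and none was higher by 0.322 or more. Over all genes tested, 51.8% were below 0, 2.38% were lower by at least 0.322, 0.326% were at least 1.5-fold lower (0.309% of the 13601 genes within the range of mean level of the 37) and 2.58% were higher by at least 0.322. None of the 37 was 2-fold lower or 2-fold higher in MDA-MB231, where 0.0188% and 0.0439% of all genes were, and none was 1.5-fold higher (0.301%). The median change was −0.368, against −0.005 over all genes tested. In Hs578T cells 29 of the 37 stood higher than control, and their median was 0.166 against 0.021 over all genes, where 54.9% were above 0. The sizes there were small: 3 of 37, or 8.11%, were higher by at least 0.322, close to the 6.34% of all genes. Those 3 were ACAT2, STARD4 and FADS2. Lower by as much were 2, SC5D and GPAM, against 6.55% of all genes. None reached 1.5-fold in Hs578T, where 1.39% of all genes were higher and 1.69% lower by that much, and none reached 2-fold (0.288% and 0.458%). In RNA from whole cultures, fewer cells of a kind and less RNA per cell cannot be told apart.

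**Figure D1:**
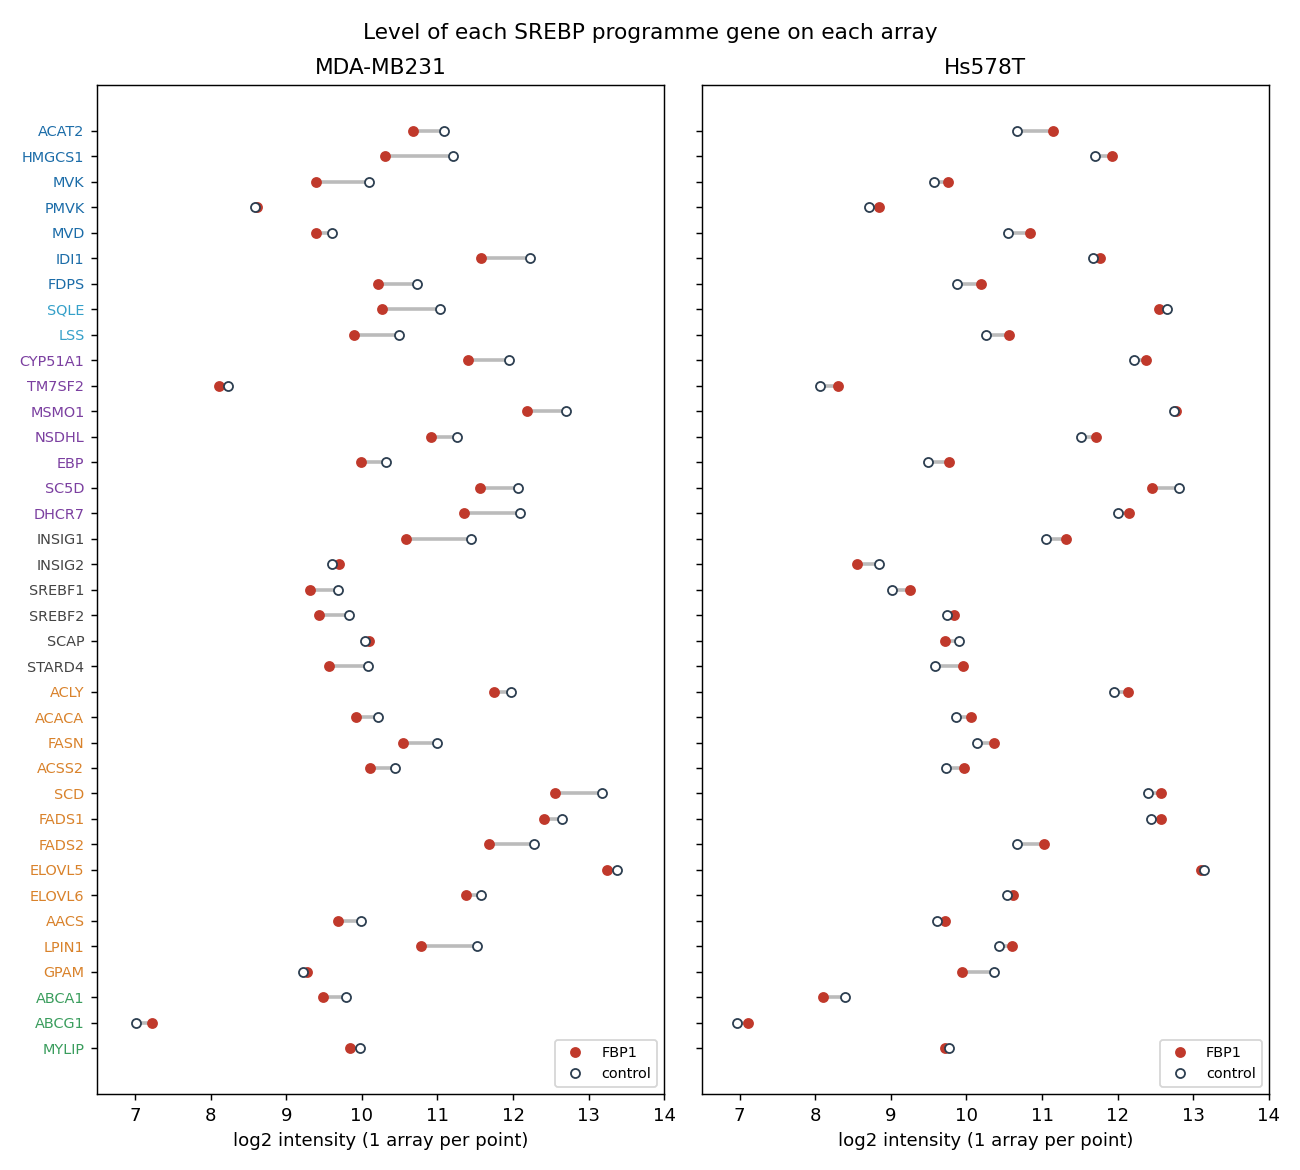
Log2 intensity of the 37 genes on each of the 4 arrays, with MDA-MB231 left and Hs578T right. Filled points are FBP1 arrays, open points are control arrays, and label colours separate the roles, from mevalonate steps at the top to efflux genes at the bottom. In MDA-MB231 the filled point lies to the left of the open one for 32 of 37 genes, and in Hs578T to the right for 29.

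The promoters of these genes are shown because SREBP binds elements in promoters. The genes themselves were listed by name and role, not by a promoter feature. RefSeq promoters (GRCh38.p14) were found for 35 of the 40 genes, 33 of them measured, and the 250 bases before each start were searched on both strands. The sterol regulatory element core TCACNCCAC was found in 1 of the 33, SREBF2. It was found in 1.22% of the 12476 tested genes with a promoter and 1.09% of all 27305 genes with one. Only exact matches to this pattern were counted, and other forms of the element were not searched. CCAAT was found in 21 of the 33, or 63.6%, against 40.2% of the tested genes and 37% of all genes with a promoter. The GC box GGGCGG was found in 31, or 93.9%, against 69.2% and 46.2%, and the E-box CACGTG in 5, or 15.2%, against 10.4% and 7.73%. A gene with several starts counts if any of its promoters holds the motif, and 10 of the 33 had more than 1. The SREBF2 promoter is given as the only holder of the core. The next 5 belong to the CCAAT holders with the lowest changes in MDA-MB231, and INSIG2, which holds no CCAAT, stands beside INSIG1; these 6 were chosen with the values known. Where a gene has several starts, the promoter with most CCAAT matches is shown. Each run is the 250 bases before the start, 5′ to 3′ on the strand of the gene. Capitals mark the sterol element core, CCAAT on either strand, and the E-box.
SREBF2 (GRCh38.p14, chr22:41832855-41833104, plus strand): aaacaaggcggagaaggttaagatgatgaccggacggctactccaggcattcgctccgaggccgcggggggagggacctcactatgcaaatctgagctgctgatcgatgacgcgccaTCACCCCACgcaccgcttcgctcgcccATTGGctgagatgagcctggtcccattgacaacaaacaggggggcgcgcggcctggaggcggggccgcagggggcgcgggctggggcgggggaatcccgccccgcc
HMGCS1 (GRCh38.p14, chr5:43313413-43313662, minus strand): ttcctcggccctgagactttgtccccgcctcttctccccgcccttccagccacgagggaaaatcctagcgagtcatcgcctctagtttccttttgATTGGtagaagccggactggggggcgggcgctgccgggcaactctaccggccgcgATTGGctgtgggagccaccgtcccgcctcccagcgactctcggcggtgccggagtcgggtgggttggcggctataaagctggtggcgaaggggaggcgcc
INSIG1 (GRCh38.p14, chr7:155297628-155297877, plus strand): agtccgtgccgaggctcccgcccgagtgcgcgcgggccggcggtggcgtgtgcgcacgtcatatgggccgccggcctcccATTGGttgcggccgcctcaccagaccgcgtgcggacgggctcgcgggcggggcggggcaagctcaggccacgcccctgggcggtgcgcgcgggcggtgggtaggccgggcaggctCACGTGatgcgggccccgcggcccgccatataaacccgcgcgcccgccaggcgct
DHCR7 (GRCh38.p14, chr11:71448394-71448643, minus strand): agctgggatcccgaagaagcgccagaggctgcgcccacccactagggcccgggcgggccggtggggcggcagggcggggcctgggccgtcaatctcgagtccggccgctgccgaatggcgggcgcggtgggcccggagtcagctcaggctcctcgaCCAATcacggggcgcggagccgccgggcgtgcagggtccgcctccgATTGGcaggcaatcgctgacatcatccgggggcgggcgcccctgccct
MVK (GRCh38.p14, chr12:109573544-109573793, plus strand): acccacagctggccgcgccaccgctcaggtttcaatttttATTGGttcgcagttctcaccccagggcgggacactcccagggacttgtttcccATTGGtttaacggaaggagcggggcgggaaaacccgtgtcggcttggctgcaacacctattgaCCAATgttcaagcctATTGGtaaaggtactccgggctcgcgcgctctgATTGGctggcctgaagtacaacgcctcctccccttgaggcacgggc
IDI1 (GRCh38.p14, chr10:1048887-1049136, minus strand): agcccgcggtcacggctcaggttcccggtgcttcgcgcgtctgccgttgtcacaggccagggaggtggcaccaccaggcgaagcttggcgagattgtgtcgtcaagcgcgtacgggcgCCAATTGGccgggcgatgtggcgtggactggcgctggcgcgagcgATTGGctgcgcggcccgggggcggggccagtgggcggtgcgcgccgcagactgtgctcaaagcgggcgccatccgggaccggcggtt
INSIG2 (GRCh38.p14, chr2:118088221-118088470, plus strand): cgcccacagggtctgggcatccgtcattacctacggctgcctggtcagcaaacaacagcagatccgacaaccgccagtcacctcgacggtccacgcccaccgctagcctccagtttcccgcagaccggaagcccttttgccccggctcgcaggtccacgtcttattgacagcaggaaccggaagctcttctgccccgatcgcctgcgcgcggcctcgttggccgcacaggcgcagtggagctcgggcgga

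The SREBF2 promoter has its sterol element 133 bases before the start and a CCAAT match 106 bases before it. HMGCS1 has 2 CCAAT matches, at 155 and 100 bases, and DHCR7 has 2, at 94 and 48 bases. MVK has 5 matches, while the 3 in IDI1 include an overlapping pair at 132 and 129 bases. INSIG1 has 1 CCAAT match, at 170 bases, and an E-box at 55 bases. All 21 CCAAT holders were below control in MDA-MB231, with a median of −0.50 and a range of −0.90 to −0.12. Among the 12 genes without a match, 8 were below control, with a median of −0.27 and a range of −0.74 to 0.09. The ranges overlap, since LPIN1 (−0.74), FADS2 (−0.60) and CYP51A1 (−0.54) have no match and were among the lower genes. In Hs578T the medians were 0.19 with a match and 0.115 without. Sterol enzymes made up most of the holders. Of the sterol enzymes searched, only PMVK and CYP51A1 had no match, while ACAT2 and SQLE had no promoter to search. The MDA-MB231 median was −0.512 over the 16 sterol enzymes and −0.303 over the 12 fatty acid and glycerolipid genes. Motif and pathway arm were not separated. No test was made of these differences, and a match describes letters in this window, not a bound site.

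The first steps of the pathway build mevalonate and then the isoprenoid farnesyl diphosphate. All 7 listed enzymes were measured. Their median change was −0.504 in MDA-MB231, with 6 of 7 below control, and 0.223 in Hs578T, with all 7 above it. ACAT2, the cytosolic thiolase that makes acetoacetyl-CoA, had 10.67 with FBP1 and 11.09 in control MDA-MB231 cells, and 11.14 with FBP1 and 10.67 in control Hs578T cells. These changes, −0.41 and 0.47, were of similar size and opposite direction, and the Hs578T value was the highest of the 37 genes in that line. HMGCS1, the cytosolic HMG-CoA synthase that uses this product, had 10.31 with FBP1 and 11.21 in control MDA-MB231 cells, which is 1.87-fold lower, and 11.92 with FBP1 and 11.70 in control Hs578T cells, which is 1.17-fold higher. In MDA-MB231 its change was the fifth lowest of the 15946 genes.

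The kinases and later enzymes of this stage differed in size. MVK, mevalonate kinase, had 9.40 with FBP1 and 10.09 in control MDA-MB231 cells, against 9.76 and 9.57 in Hs578T. PMVK, which adds the next phosphate, had 8.61 with FBP1 and 8.59 in control MDA-MB231 cells, and 8.84 and 8.71 in Hs578T. PMVK was thus the only enzyme of the sterol steps above control in MDA-MB231, by 0.02. MVD, the decarboxylase that follows, stood at 9.40 with FBP1 and 9.61 in control MDA-MB231 cells, and at 10.84 and 10.55 in Hs578T. IDI1, the isomerase of isopentenyl diphosphate, had 11.57 with FBP1 and 12.22 in control MDA-MB231 cells (1.57-fold lower), and 11.76 and 11.68 in Hs578T. FDPS, which makes farnesyl diphosphate, had 10.22 with FBP1 and 10.73 in control MDA-MB231 cells, and 10.19 and 9.88 in Hs578T. The changes of neighbouring steps therefore ran from 0.02 to −0.90 in MDA-MB231, whereas those in Hs578T lay between 0.08 and 0.47.

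The committed sterol steps turn squalene into the ring of lanosterol, and 2 of the 3 listed enzymes were measured. SQLE, the squalene epoxidase, had 10.26 with FBP1 and 11.03 in control MDA-MB231 cells, which is 1.70-fold lower. In Hs578T it had 12.54 with FBP1 and 12.65 in control cells, so it was slightly below control there too. LSS, the cyclase that forms lanosterol, had 9.89 with FBP1 and 10.49 in control MDA-MB231 cells (1.51-fold lower) and 10.56 with FBP1 and 10.26 in control Hs578T cells (1.22-fold higher). LSS lay just past the 1.5-fold line (0.585 on the log2 scale) at −0.59, as did FADS2 at −0.60 and SCD at −0.62. CYP51A1 at −0.54 and MSMO1 at −0.52 lay just short of it.

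From lanosterol, demethylation, reduction and isomerisation lead to cholesterol, and 7 of the 8 listed enzymes were measured. All 7 were below control in MDA-MB231, with a median of −0.506, and 6 of 7 above control in Hs578T, with a median of 0.150. CYP51A1, the lanosterol demethylase, had 11.41 with FBP1 and 11.95 in control MDA-MB231 cells, and 12.37 and 12.22 in Hs578T. MSMO1, the sterol methyl oxidase, had 12.18 with FBP1 and 12.70 in control MDA-MB231 cells, and 12.77 and 12.74 in Hs578T. NSDHL, which acts with it in removing the methyl groups, had 10.91 with FBP1 and 11.26 in control MDA-MB231 cells, and 11.71 and 11.52 in Hs578T. The sterol reductase gene TM7SF2 had the smallest change of the stage in MDA-MB231, at −0.12, beside 0.24 in Hs578T. EBP, the sterol isomerase, stood at −0.34 and 0.27.

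The last enzymes of the stage differed from one another in Hs578T. SC5D, the sterol desaturase, had 11.56 with FBP1 and 12.07 in control MDA-MB231 cells, and 12.46 with FBP1 and 12.81 in control Hs578T cells. It was therefore lower with FBP1 in both lines, by −0.51 and −0.35. DHCR7, the reductase that completes cholesterol, had 11.35 with FBP1 and 12.09 in control MDA-MB231 cells, which is 1.67-fold lower, and 12.15 and 12.01 in Hs578T, which is 1.10-fold higher. SC5D and SQLE were the only sterol enzymes below control in both lines. Over the 16 measured sterol enzymes the median was −0.512 in MDA-MB231, against 0.191 for Hs578T. The changes of the lines correlated across them at r = 0.22 and rho = 0.303. These 16 points share the same 4 arrays and are not replicates.

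**Figure D2:**
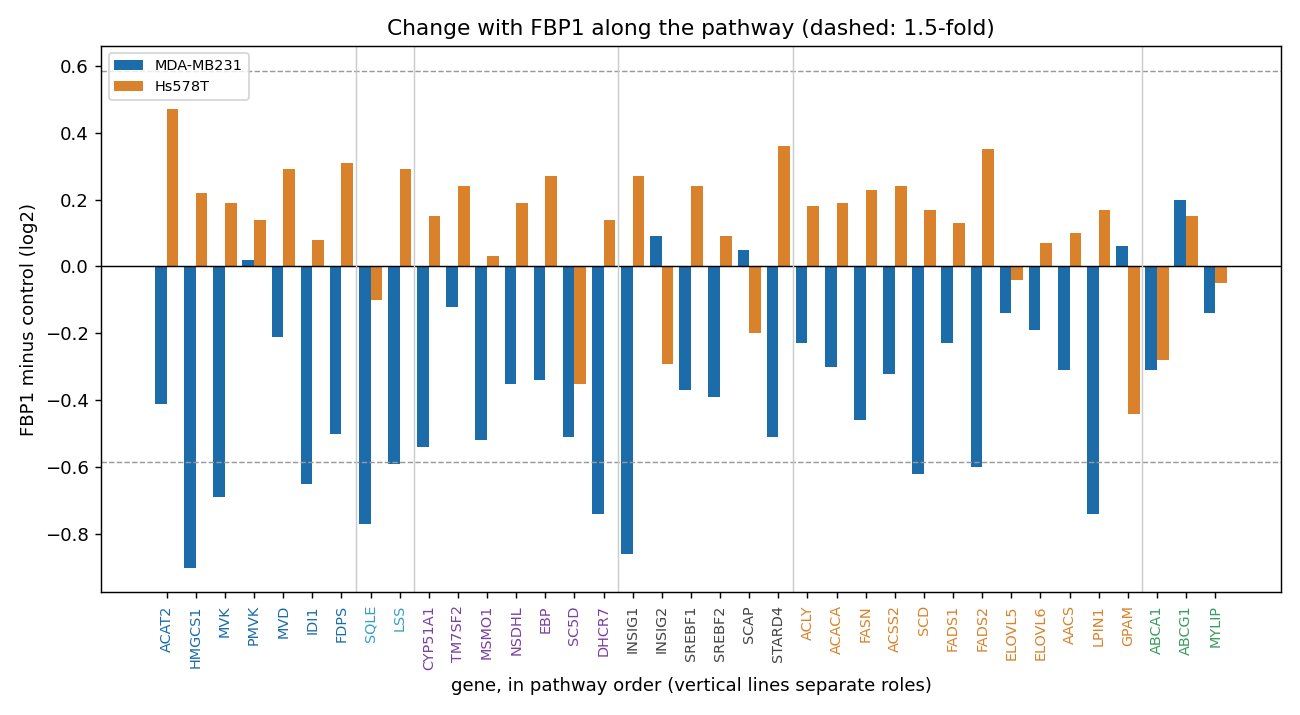
FBP1 minus control (log2) for each gene in pathway order, in MDA-MB231 (blue) and Hs578T (orange), 1 array per group; vertical lines and label colours separate roles, and dashed lines mark 1.5-fold. Blue bars reach −0.90 and lie below 0 for 32 genes, while orange bars stay between −0.44 and 0.47.

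Of the 6 regulators and carriers, 4 were below control in MDA-MB231 and the same 4 above it in Hs578T, while INSIG2 and SCAP had the reverse signs. The medians over the 6 were −0.382 and 0.166. INSIG1, which retains SCAP and is itself an SREBP target gene, had 10.58 with FBP1 and 11.44 in control MDA-MB231 cells, which is 1.82-fold lower and the eighth lowest change of the 15946 genes. In Hs578T it had 11.32 with FBP1 and 11.05 in control cells, which is 1.20-fold higher. Its paralogue INSIG2, which does the same in the membrane, had 9.70 with FBP1 and 9.61 in control MDA-MB231 cells, and 8.55 with FBP1 and 8.85 in control Hs578T cells. The signs of INSIG2 (0.09 and −0.29) were thus the reverse of those of INSIG1 (−0.86 and 0.27) in each line. SCAP followed INSIG2 in sign, with 10.10 with FBP1 and 10.04 in control MDA-MB231 cells, and 9.71 and 9.90 in Hs578T.

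The transcription factor genes themselves lay nearer to control than INSIG1 in both lines. SREBF1, whose product acts mainly on fatty acid genes, had 9.32 with FBP1 and 9.69 in control MDA-MB231 cells, and 9.25 and 9.01 in Hs578T. SREBF2, whose product acts mainly on sterol genes, had 9.43 with FBP1 and 9.83 in control MDA-MB231 cells, and 9.83 and 9.74 in Hs578T. Both were lower in MDA-MB231, by 1.29-fold and 1.31-fold, and above control in Hs578T, by 0.24 and 0.09. STARD4, a soluble sterol carrier, had 9.57 with FBP1 and 10.08 in control MDA-MB231 cells (1.43-fold lower), and 9.95 and 9.59 in Hs578T (1.28-fold higher).

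The fatty acid arm had the same signs, with a median nearer to 0 in MDA-MB231. Of 13 listed genes 12 were measured; 11 were below control in MDA-MB231, with a median of −0.303, and 10 above control in Hs578T, with a median of 0.169. Precursor supply included ACLY, which makes cytosolic acetyl-CoA from citrate, with 11.75 with FBP1 and 11.97 in control MDA-MB231 cells, and 12.13 and 11.95 in Hs578T. ACSS2, which makes it from acetate, stood at −0.32 and 0.24, and AACS, which activates the ketone body acetoacetate, at −0.31 and 0.10. ACACA, which makes malonyl-CoA, had 9.92 with FBP1 and 10.22 in control MDA-MB231 cells, and 10.06 and 9.86 in Hs578T. FASN, the fatty acid synthase, had 10.54 with FBP1 and 11.00 in control MDA-MB231 cells (1.37-fold lower), and 10.37 and 10.14 in Hs578T (1.17-fold higher). Each of these 5 genes was below control in MDA-MB231 and above it in Hs578T.

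Among the members, the desaturases lay further from control than the elongases in both lines. SCD, which makes monounsaturated fatty acids, had 12.56 with FBP1 and 13.18 in control MDA-MB231 cells (1.53-fold lower), and 12.57 and 12.40 in Hs578T. FADS2, which introduces the first double bond of polyunsaturated synthesis, had 11.68 with FBP1 and 12.28 in control MDA-MB231 cells, and 11.02 with FBP1 and 10.67 in control Hs578T cells. FADS1, which acts later in the same route, stood at −0.23 and 0.13, nearer to 0 than FADS2 (−0.60 and 0.35) in each line. The elongase gene ELOVL5 stood at −0.14 and −0.04 and ELOVL6 at −0.19 and 0.07.

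Glycerolipid synthesis held both the lowest and the highest change of this arm in MDA-MB231. LPIN1, the phosphatidate phosphatase that makes diacylglycerol, had 10.78 with FBP1 and 11.52 in control MDA-MB231 cells, which is 1.66-fold lower and among the 20 lowest changes in the line, and 10.60 and 10.43 in Hs578T. GPAM, the mitochondrial acyltransferase that starts glycerolipid synthesis, had 9.27 with FBP1 and 9.22 in control MDA-MB231 cells, but 9.94 with FBP1 and 10.37 in control Hs578T cells, the lowest change of the 37 in that line. GPAM, INSIG2 and SCAP were the 3 genes above control in MDA-MB231 and below it in Hs578T. Across these 12 genes, measured on the same arrays, the MDA-MB231 and Hs578T changes had r = −0.715 (rho = −0.657), and r = −0.582 over the 11 without GPAM. Of the 20 lowest changes among all genes in MDA-MB231, 5 were members of the programme, and of the 100 lowest, 15. The members make up 37 of the 15946 genes tested. These ranks restate the same changes as the fold counts above, for a list chosen with earlier results known.

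The efflux genes and the LXR target MYLIP had changes of the same sign in both lines, as did PMVK, SQLE, SC5D and ELOVL5. This sign pattern was common: of all 15946 genes, 3835 were below control in both lines and 4331 above it in both. ABCA1, which exports cholesterol to apolipoproteins, had 9.48 with FBP1 and 9.79 in control MDA-MB231 cells, and 8.11 with FBP1 and 8.39 in control Hs578T cells, so it was lower in both. ABCG1, an exporter to lipoprotein particles, had 7.22 with FBP1 and 7.02 in control MDA-MB231 cells, and 7.11 and 6.96 in Hs578T, so it was higher in both, at dim levels. MYLIP, a ubiquitin ligase that acts on lipoprotein receptors, stood at −0.14 and −0.05. All 3 lay within 0.322 of control in both lines. Their changes in MDA-MB231 minus those in Hs578T were −0.03, 0.05 and −0.08, each nearer to 0 than the median of −0.587 over the other 34 genes. Among those 34, ELOVL5 (−0.10), PMVK (−0.12) and SC5D (−0.15) also lay near 0.

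The difference between the lines was set out gene by gene. The FBP1 change in MDA-MB231 minus that in Hs578T was below 0 for 33 of 37 genes, and for all 16 sterol enzymes, against 54.7% of all genes tested. Its median over the 37 was −0.550, against −0.024 over all genes. The largest were HMGCS1 and INSIG1, both −1.13, followed by FADS2 (−0.94) and LPIN1 (−0.91), and at the other end stood GPAM (0.49), INSIG2 (0.38) and SCAP (0.25). By at least 1.5-fold, 17 of 37 genes were lower in this difference, or 45.9%, against 2.28% of all genes, and none was higher, against 2.6%. Below control in MDA-MB231 and above it in Hs578T were 27 genes, or 73.0%, against 27.7% of all genes. With each change at least 0.322 this left 3 genes, or 8.11%, against 0.307%, and at 1.5-fold none, against 0.0188%. No test of this difference was possible, since cell line, construct and their interaction use up all 4 arrays. Across the 37 genes, which share those arrays, the changes of the lines correlated at r = −0.368 and rho = −0.324, beside r = 0.0659 over all genes.

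**Figure D3:**
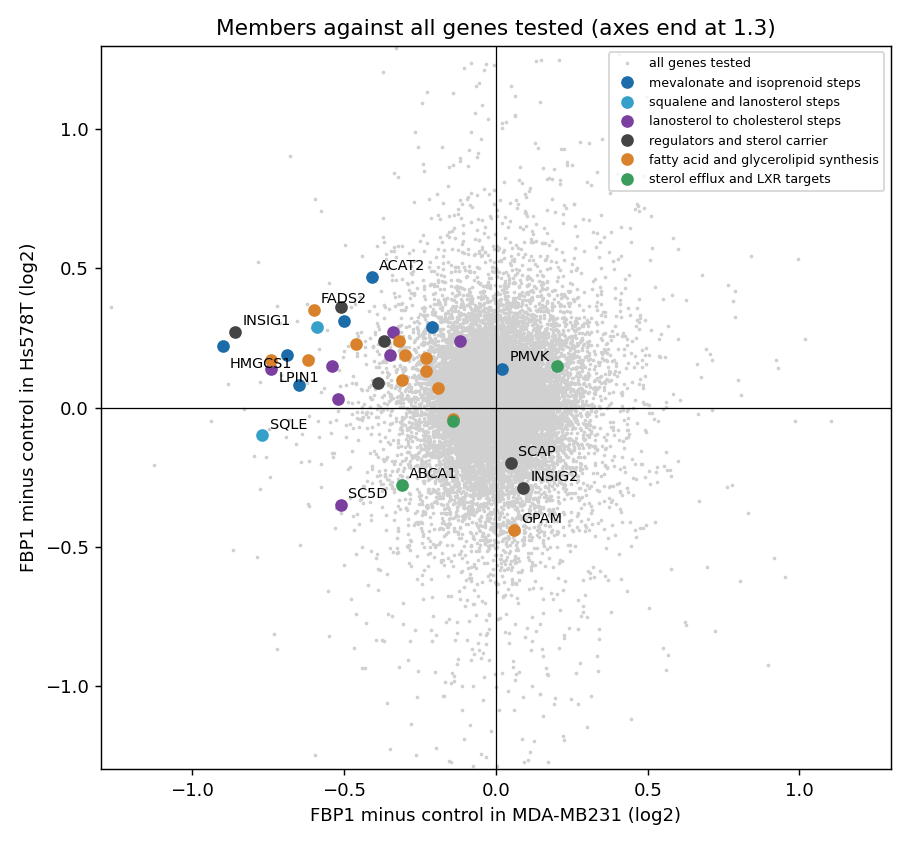
FBP1 minus control in MDA-MB231 (horizontal) against Hs578T (vertical), both log2; grey points are all genes tested and coloured points the 37 genes by role, 1 array per group. 27 of the 37 lie at the upper left, while GPAM, INSIG2 and SCAP lie in the lower right, and genes beyond the axis limits are not drawn.

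With the lines as the only replication, limma's fit over all 15946 genes called none of the 37 for FBP1 minus control at an adjusted p under 0.05, and none of all genes (0%). Before adjustment 3 of the 37 had a p under 0.05, or 8.11%, against 5.14% of all genes. They were SC5D (mean change −0.43, SE 0.08), ABCA1 (−0.30, SE 0.10) and SQLE (−0.43, SE 0.16), each lower in both lines. The limma adjusted p of each was 0.943. For HMGCS1 the mean change was −0.34 with an SE of 0.24 and an adjusted p of 0.947, and for INSIG1 −0.30 with an SE of 0.25 and 0.951. The error of this fit combines the disagreement of the lines with a variance prior drawn from all genes tested. These hold 1 and 5.04 degrees of freedom. The introduced gene itself was not called in this fit, so a lack of calls does not show that these genes did not change.

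The lines also differed in the level of these genes apart from FBP1. For MDA-MB231 minus Hs578T over both constructs, the same limma fit called 12 of 37 genes at an adjusted p under 0.05, or 32.4%, against 40.8% of all genes, so the share was not above the background. Lower in MDA-MB231 were 7, among them SQLE (3.87-fold, limma adjusted p = 0.000288), MVD (2.28-fold, 0.00127), HMGCS1 (2.07-fold, 0.0171), GPAM (1.88-fold, 0.00369) and SC5D (1.76-fold, 0.000601). CYP51A1 (1.53-fold) and NSDHL (1.44-fold) completed them, against 19% of all genes called lower. Higher in MDA-MB231 were 5, against 21.8% of all genes: ABCA1 (2.61-fold, limma adjusted p = 0.000192), FADS2 (2.19-fold, 0.0073), INSIG2 (1.94-fold, 0.00201), ELOVL6 (1.86-fold, 0.0012) and EBP (1.44-fold, 0.0417). Of the 7 lower genes 6 were sterol enzymes and 1, GPAM, a glycerolipid gene, whereas no gene of fatty acid synthesis proper was called lower. The p-values rest on 2 arrays a line that differ in construct. Their error again combines the disagreement of the lines in the FBP1 change with the variance prior. That disagreement was at least 1.5-fold, with the change in MDA-MB231 the lower, for 45.9% of the 37 genes and 2.28% of all genes. With the change in MDA-MB231 the higher, it was so for 0 of the 37 and 2.6% of all genes. A larger disagreement raises the error, so the shares called are not like for like.

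The gap between the lines was next read separately on the FBP1 arrays and on the control arrays. MDA-MB231 was above Hs578T for 14 of 37 genes on the FBP1 arrays and for 28 on the control arrays. Of all 15946 genes it was above for 7405 and 8114. The median gap was −0.19 with FBP1 and 0.24 in control cells, against −0.03 and 0.01 over all genes. The gap was lower with FBP1 for 33 genes, or 89.2%, against 54.7% of all genes. Lower in MDA-MB231 with FBP1 but higher in it in control cells were 14 genes, or 37.8%, against 11.7% of all genes. Among the 12 fatty acid genes the median size of the gap was 0.17 with FBP1 and 0.74 in control cells, so the lines lay closer together. Over all genes it was 0.25 and 0.27. FASN had a gap of 0.18 with FBP1 and 0.86 in control cells, and SCD −0.01 and 0.77. For the 16 sterol enzymes the median size was 0.63 with FBP1 and 0.45 in control cells, but the stages differed. It was 0.36 with FBP1 and 0.52 in control cells over the 7 mevalonate and isoprenoid steps, and 0.80 with FBP1 and 0.26 in control cells over the 7 steps from lanosterol to cholesterol. HMGCS1 had a gap of −1.61 with FBP1 and −0.48 in control cells, and DHCR7 −0.80 and 0.08. These gaps combine the same 4 arrays as the changes above and are no separate evidence.

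**Figure D4:**
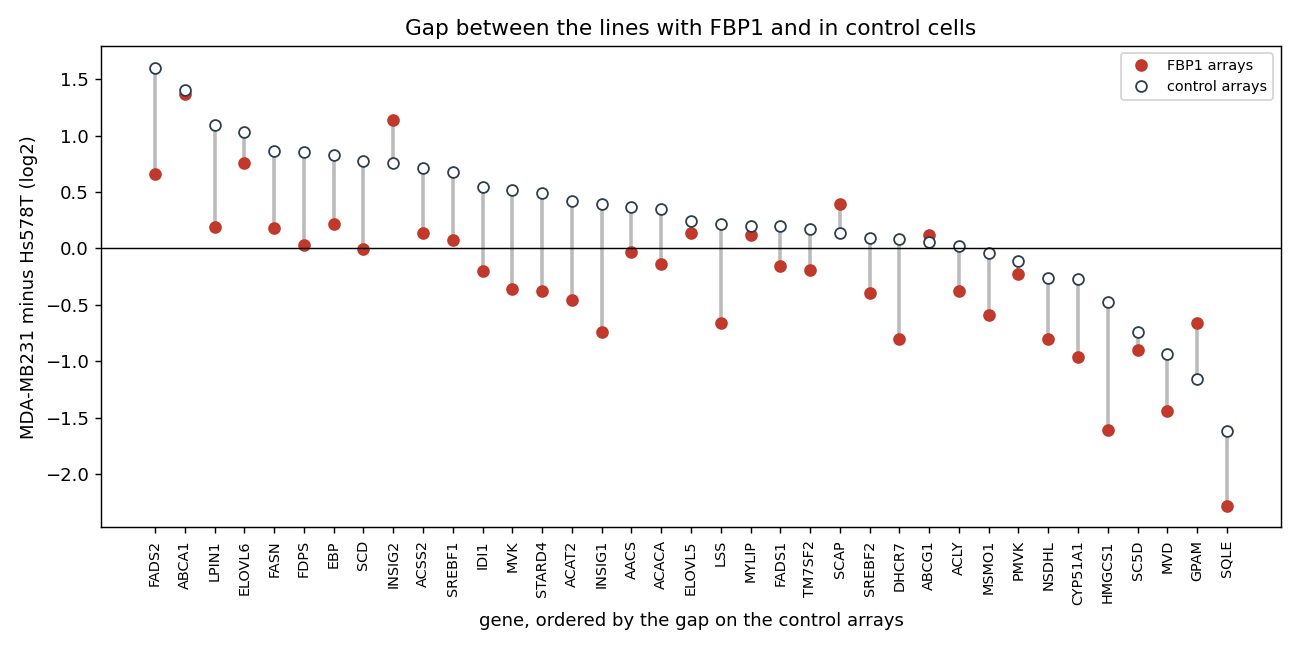
MDA-MB231 minus Hs578T (log2) for each gene on the FBP1 arrays (filled) and the control arrays (open), ordered by the control gap, 1 array per cell line and construct. Filled points lie below open points for 33 of 37 genes; ABCA1 keeps nearly the same gap (1.37 with FBP1 and 1.40 in control cells).

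Genes of the same pathways outside the programme were read from 4 lists of 54 genes, of which 47 were tested. These lists too were chosen with earlier results of these data known. Of 11 neighbours of the sterol route in synthesis, transport and storage, 1 was lower by at least 0.322 in MDA-MB231, and 2 were higher by as much in Hs578T. Their median was −0.030 in MDA-MB231, against −0.046 for Hs578T. TMEM97, a sterol-regulated membrane protein, stood at −0.33 and 0.40, LBR, a sterol reductase of the nuclear envelope, at −0.10 and 0.39, and NPC2, a lysosomal sterol carrier, at −0.03 and −0.32. TMEM97 thus had the signs of the synthesis genes, while NPC2 did not.

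SREBP processing and turnover gave 9 tested genes, of which 0 were lower by 0.322 or more in MDA-MB231 and 1 in Hs578T, with medians of 0.020 and −0.165. All 9 were below control in Hs578T, against 45.1% of all genes. FBXW7, a ubiquitin ligase subunit that acts on nuclear SREBP, stood at 0.05 and −0.51, ERLIN2, which acts in sterol-regulated degradation, at 0.27 and −0.25, and PAQR3, a Golgi protein that binds SCAP, at 0.19 and −0.20. SCAP (0.05 and −0.20) had the same signs as these 3.

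Of 9 genes around LXR, 1 was lower by at least 0.322 in MDA-MB231 and 0 were past that size in Hs578T, with medians of −0.008 and −0.066. LPCAT3, a phospholipid acyltransferase, stood at −0.36 and 0.06, NR1H3, which encodes LXR alpha, at −0.01 and 0.28, and PLTP, a phospholipid transfer protein, at 0.23 and −0.07. Of 18 other genes of fatty acid, phospholipid and triglyceride synthesis, 1 was lower and 1 higher by at least 0.322 in MDA-MB231, and 3 were lower by as much in Hs578T, with medians of 0.012 and −0.090. ELOVL7, an elongase, stood at 0.07 and −0.64, GPAT4, an acyltransferase of the endoplasmic reticulum, at −0.03 and −0.49, and ACSL1, an acyl-CoA synthetase, at 0.14 and −0.34. The acyltransferases GPAM and GPAT4 were therefore both lower with FBP1 in Hs578T and near control in MDA-MB231. Of all genes tested, 2.38% were lower and 2.58% higher by at least 0.322 in MDA-MB231, and 6.55% lower and 6.34% higher in Hs578T. Differences between these lists and the programme were not tested.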

How the data were processed

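Expression was measured on Affymetrix arrays, 1 per cell line and construct. The authors deposited log2 values of 33297 probe sets; the scale was read from the values. They used Expression Console (Affymetrix), version 1.1.2800.28061, per the submitters' processing notes; the normalization and summarization are not given in the sources used here. Scaling between arrays would hide a change in RNA per cell.

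The platform annotation assigned no gene to 12083 probe sets, a single gene to 19460 and several to 1754. Genes averaging under log2 6.16, the 25th percentile over probe sets, were not tested. Limma 3.58.1 in R 4.3.3 was fitted to 15946 genes with terms for cell line (the pairing block) and construct, a trended variance prior and Benjamini-Hochberg adjustment, called at 0.05. It has 1 residual degree of freedom beside a prior of 5.04. Replication is between lines, not cultures. Alternatives covered the filter, scaling, probe set averaging, prior, block and fold threshold. Named genes were all measured members and up to 3 per other list. The threshold of 0.322 on the log2 scale was the lower of the fold thresholds. Members and lists were chosen with earlier results of these data known. The promoters shown were chosen after the data were seen. Motifs were searched in RefSeq promoters (GRCh38.p14). The number of arrays limits the precision.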

Additional observations from a re-analysis of the deposited data

Results flagged for a closer look

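Of the 37 genes, 3 were lower with FBP1 by at least 0.322 (log2) in MDA-MB231 and higher by at least 0.322 in Hs578T. This is 8.11%, against 0.307% of all genes. The single array pair of each line thus had the opposite sign. The FBP1 change in MDA-MB231 minus that in Hs578T was −0.88 for ACAT2, −0.88 for STARD4 and −0.94 for FADS2. The rule itself selects large differences, and it leaves out HMGCS1 and INSIG1, whose difference of −1.13 was larger. These differences were not tested, since the design leaves no replicate for them.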

How the results depend on the processing

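The 74 changes of single members, 37 in each line, kept their sign under every alternative that retained the gene. The largest shift was 0.05 on the log2 scale. ABCG1 fell below the 50th percentile filter. The filter, prior and block cannot move the change of a single gene. At this rounding, probe set averaging moved only CYP51A1, to −0.56 in MDA-MB231 and 0.13 in Hs578T. The signs of the other members were thus checked by scaling alone. With no filter, a 50th percentile filter, quantile normalization, median centring and averaged probe sets, the median change of the members ran from −0.382 to −0.357 in MDA-MB231 and from 0.155 to 0.179 in Hs578T. The count at least 1.5-fold lower in MDA-MB231 was 8 after quantile normalization or median centring, in place of 10. LSS, SCD and FADS2 lay at −0.58, −0.58 and −0.57 after quantile normalization and at −0.58, −0.60 and −0.58 after median centring, next to the threshold of 0.585. That count was 22 with a threshold of 0.322 (log2) and 0 with a 2-fold threshold. The count of members higher in Hs578T, 3 at 0.322, was 0 at 1.5-fold and 0 at 2-fold, and the count in opposite directions was 0 at 1.5-fold. Limma called 0 members for FBP1 under each alternative, the fit without the cell line as block included, with 0 to 3 at unadjusted p under 0.05. Between the lines it called 11 to 15. No array could be left out, because each group has 1. Dim signal limits ABCG1, which had 6.96 to 7.22 beside a filter level of 6.16.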
